A study of Rattus norvegicus with 1 sample.

Results

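The outer 2 Mb at both ends of the 20 rat autosomes were examined in control DNA of PCCl3 cells. Each chromosome of the rn4 map was divided into bins of 100 kb from its first position. A bin was taken when it started within the first 2 Mb or ended within 2 Mb of the last tag, so the choice rested on position alone. This gave 820 bins out of 25590 on the autosomes and 27956 on all sequences, with 400 at start ends and 420 at far ends. A start end held 20 bins and a far end 21, the last of them not full. The remaining 24770 autosomal bins are called the interior.

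PCCl3 is an established Fischer rat cell line that retains features of the hormone-producing thyrocyte, and it was grown with a mixture of added hormones. The study sequenced this DNA as the background against which Pax8 binding was sought in the same cells. There was 1 group of 1 library, labelled input DNA, from formaldehyde-fixed cells and with no antibody, and no other treatment or genotype is named. The methods name non-IP DNA as the control that was sequenced. DNA tags do not measure expression, so the thyroid identity of the cells could not be checked here. No replicate exists, hence no error between samples can be given and no test was made. Intervals are exact 95% intervals of the counts, and differences are read against the spread of the interior. Those intervals cover counting error only, since amplified reads are not independent molecules.

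The ends of a mammalian chromosome carry telomeric repeats, and next to them lie subtelomeric blocks of duplicated sequence and often gene-rich, GC-rich DNA. Where a chromosome is telocentric, an end of the map lies instead beside the centromere, with its satellite repeats. In the standard rat karyotype chromosomes 2 and 4 to 10 are telocentric, 1, 3 and 11 to 13 are subtelocentric, and 14 to 20 are metacentric. Short reads from repeated DNA are hard to place, and unassembled repeats are missing from a map, so a control library shows what such regions contribute to the background of a binding experiment.

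The library held 6714002 aligned tags of 50 bp (Poisson 95% interval 6708924 to 6719082), of which 6473050 lay on the autosomes. Tags with the same 5′ end and strand were counted once as a distinct tag, which left 5775672 on the autosomes, and the further copies are called repeated tags. The ends held 198408 tags, 176966 of them distinct. The median autosomal bin held 181.5 distinct tags. Start ends began close to the first position of the map, with the first tag between position 15 on chromosome 15 and position 15728 on chromosome 3.

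Start ends were sparse in most chromosomes, whereas far ends were not. The median bin held 125 distinct tags at start ends, 196 at far ends and 183 in the interior. Over the whole length, density was 1.63 distinct tags per kb at start ends, 2.72 at far ends and 2.26 in the interior. Counting error was small beside this, since the start ends held 65153 distinct tags (Poisson 95% interval 64654 to 65655) and the far ends 111813 (111159 to 112470). The quartiles of the bins were 92.75 and 213.5 at start ends, and 108 and 374 at far ends.

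In order to remove differences between chromosomes, the median bin of each end was divided by the interior median of the same chromosome. At start ends the ratio had a median of 0.641 over the 20 chromosomes (quartiles 0.549 and 0.846) and ran from 0.326 to 2.50. At far ends it had a median of 1.17 (quartiles 0.704 and 1.69) and ran from 0.518 to 3.02. The far end was denser than the start end in 15 of 20 chromosomes.

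Of the start ends, 15 of 20 were at least 15% below their interior and 4 were at least 15% above it. The interior was itself uneven. Of 1228 interior blocks of 2 Mb, 39.3% were at least 15% below the interior median of their chromosome and 41.7% were at least 15% above it. The share of low start ends, 75%, was therefore well over that background, while 20% of high start ends was under it. Of the far ends, 10 of 20 were at least 15% above and 8 were at least 15% below. These shares of 50% and 40% lie near the background, so far ends as a group did not stand apart from interior blocks by this rule. At a size of 50% in place of 15%, 3 start ends were low and 3 high, and 6 far ends were high and 0 low, against 5.37% low and 25.9% high among interior blocks.

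**Figure D1:**
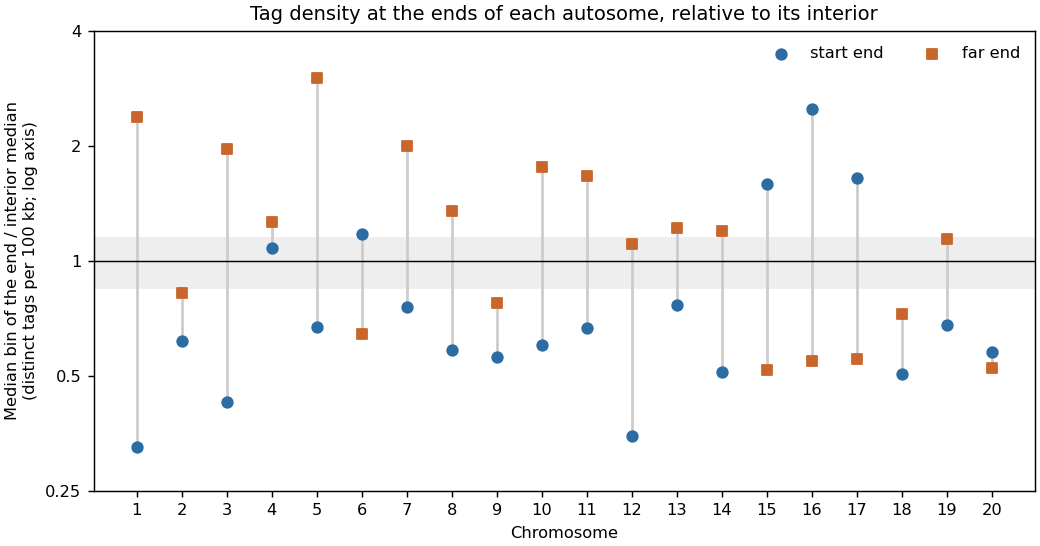
Each chromosome is shown by its start end (blue circle) and far end (orange square), joined by a grey line, as the ratio of the end's median 100 kb bin to the interior median on a log axis, with the 15% limits shaded. Of the start ends 15 lie under the shaded band, and far ends reach from 0.518 to 3.02.

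Single ends were then set beside the blocks of their own chromosome. Against the whole interior, the highest ratio was at the far end of chromosome 5, 3.02, where the 21 bins ran from 309 to 805 distinct tags with a median of 516 and the interior median was 171. Only 1 of the 84 interior blocks of chromosome 5 was higher. The start end of chromosome 16 followed at 2.50, with bins from 278 to 724, a median of 419.5 and 3 of 43 blocks higher. All of its bins thus lay above the interior median of 168.

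Chromosome 1 had a far ratio of 2.39. Its bins ran from 10 in the last, partly filled bin to 699, with a median of 516. On chromosome 7 the far ratio was 2.01 although 2 of its bins held no tag, and its bins ran from 0 to 806. At the far end of chromosome 3 the ratio was 1.97, with bins from 220 to 931, none of them under the interior median of 204. On chromosome 10 the far end reached 1.77 over an interior that was itself dense, with a median of 342 per bin. Its bins ran from 123 to 1497 with a median of 604, the highest median of the 40 ends. These high values were smaller against the next 10 Mb inward, where the ratios were 1.42 for the far end of chromosome 5, 1.45 for the start end of chromosome 16, 1.06, 1.17 and 1.13 for the far ends of chromosomes 1, 7 and 10, and 1.59 for the far end of chromosome 3, then the highest of these 6. On that scale the far ends of chromosomes 1 and 10 were within 15%.

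The lowest ratio was at the other end of chromosome 1. The 20 bins of its start end held between 1 and 175 distinct tags, with a median of 70.5 against an interior median of 216, a ratio of 0.326. Of the 131 interior blocks of that chromosome 128 were higher. The start end of chromosome 12 was at 0.349, with bins from 77 to 566 and a median of 110.5, and that of chromosome 3 was at 0.426, with bins from 7 to 183 and a median of 87. Chromosome 3 thus joined a start end in which every bin lay under the interior median to a far end in which every bin lay over it. Both low values were nearer 1 when the outer 5 Mb were taken, 0.842 for chromosome 1 and 0.835 for chromosome 3, whereas against the next 10 Mb they were 0.369 and 0.181.

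The start ends of chromosomes 18 and 14 had ratios of 0.507 and 0.513. The former held 16 to 267 distinct tags per bin, with a median of 75.5, and the latter 0 to 502, with a median of 80. On chromosome 15 the far end was at 0.518, with bins from 8 to 154 and a median of 57, the lowest median of the 40 ends. Chromosome 16 had the only end that was lower than every interior block of its chromosome, its far end, with a ratio of 0.548 and 43 of 43 blocks higher.

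By mean density per length the median far ratio was 1.00 in place of 1.17, so the excess of the far ends was not kept. By the mean per bin, which counts the partly filled last bin as full, it was 0.990. The interval of the mean ratio lay wholly under 1 at 17 start ends and 8 far ends, and wholly over 1 at 3 start ends and 9 far ends. Of interior blocks 54.7% lay wholly under and 40.4% wholly over 1 by the same measure, so the 85% of low start ends exceeded the background and the far ends did not. The start ends of chromosomes 4 and 6 changed side beyond counting error, since their median ratios of 1.08 and 1.18 became mean ratios of 0.871 (exact 95% interval 0.843 to 0.900) and 0.929 (0.900 to 0.958).

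Both ends of each chromosome were then set side by side. A low start end went with a high far end, both past 15%, in 9 chromosomes, namely 1, 3, 5, 7, 8, 10, 11, 13 and 14. The opposite order was found in 4 chromosomes, 6, 15, 16 and 17. Both ends were low in 4 chromosomes, 2, 9, 18 and 20, and both were high in 0. These patterns depended on the reference. Against the next 10 Mb, a low start end went with a high far end on 2 chromosomes, 3 and 5, and the opposite order was found on 3, while with the outer 5 Mb the numbers were 10 and 2. No background was computed for such pairs, and with 75% of start ends low and 50% of far ends high the first pattern would be common in any case. On chromosome 4 only the far end passed the rule, on chromosomes 12 and 19 only the start end. Across the 20 chromosomes the start and far ratios had a Spearman rho of -0.349, a description over ends that share a library and an interior.

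Grouped by chromosome form, low start ends were found in 6 of 8 telocentric, 5 of 5 subtelocentric and 4 of 7 metacentric chromosomes. The median start ratio was 0.643, 0.426 and 0.681 in these groups. High far ends were found in 5 of 8 telocentric, 4 of 5 subtelocentric and 1 of 7 metacentric chromosomes, and low far ends in 3, 0 and 5. The median far ratio was 1.31 in telocentric, 1.67 in subtelocentric and 0.553 in metacentric chromosomes. Chromosomes 15, 16 and 17, whose start ratios were 1.60, 2.50 and 1.65, are metacentric and had far ratios of 0.518, 0.548 and 0.553. Which end of each rn4 sequence lies by the centromere was not examined here.

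The median over chromosomes was lowest near the edge at start ends and rose inward, although chromosomes differed widely in how far inward the 1 Mb medians stayed on the same side of the interior as the end, with a median of 4.5 Mb and quartiles of 2 and 10 Mb. In the first 100 kb the median ratio was 0.498 and 16 of 20 chromosomes lay under 1. By steps of 1 Mb, the median ratio was 0.641 in the first, 0.696 in the second, 0.884 in the third and 1.07 in the fourth, with 16, 13, 11 and 9 chromosomes under 1. Further in, up to 10 Mb, it stayed between 0.8501 and 1.11.

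At far ends the density fell toward the edge from a high level. The median ratio was 1.11 in the outermost 1 Mb, 1.26 in the next and 1.54 in the third, and it lay between 1.24 and 1.73 from there to 10 Mb. In the outermost 100 kb that was fully covered it was 0.901. The inner Mb was denser than the outer Mb at 16 of 20 far ends and at 11 of 20 start ends. No background of interior blocks was computed for these counts, and 11 of 20 is close to an even split. Set against the next 10 Mb inward rather than the whole interior, the median far ratio was 0.771, so that it changed side, with 11 far ends at least 15% below and 3 above. Interior blocks set against the 10 Mb on their lower side gave 34.8% below and 40.2% above. For start ends the same comparison gave a median of 0.781, with 13 ends below and 4 above, against 35.1% and 38.2% of interior blocks.

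**Figure D2:**
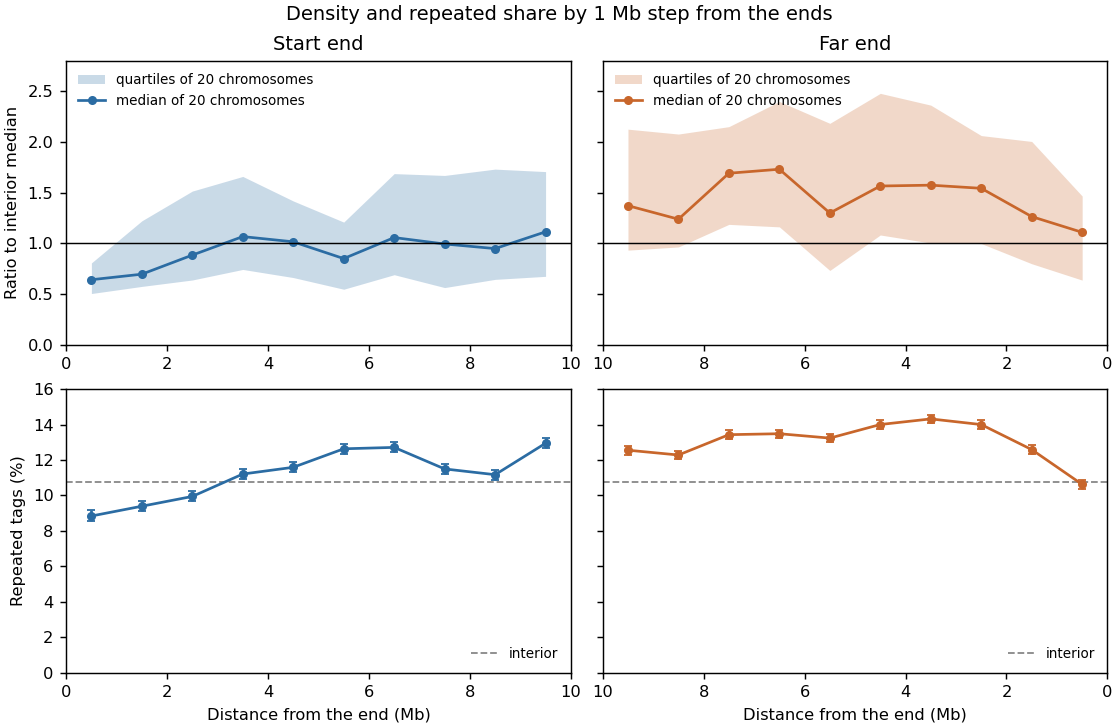
Top panels show the ratio of the median 100 kb bin to the interior median for each 1 Mb step over the 10 Mb next to the start ends (left) and far ends (right), as the median and quartiles of 20 chromosomes. Bottom panels show the repeated tags as a percentage of all tags with exact 95% intervals, and the dashed line is the interior. Both measures are lowest in the outermost 1 Mb at start ends and at far ends.

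Within the ends, density changed in steps as well as in slopes. At the start end of chromosome 7 the first 13 bins held 50 to 207 distinct tags and the next 7 held 350 to 605. Chromosome 14 changed likewise, from 0 to 157 in its first 15 bins to 296 to 502 in the last 5. The start end of chromosome 12 kept to 77 to 125 in its first 12 bins, rose to 566 in the 16th and returned to 89 to 110 in the last 3. On chromosome 15 the start end fell from 488 in its first bin to 79 in the 14th. These 4 ends were singled out after their values had been seen.

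Measured against the autosomal median bin, start ends had more sparse bins and fewer dense bins than far ends. Bins with at most 0.5 times that median were 96 of 400 at start ends (24.0%) and 74 of 420 at far ends (17.6%), against 13.4% of all autosomal bins. Bins with at least 1.5 times the median were 58 at start ends (14.5%) and 158 at far ends (37.6%), against 30.1% of all autosomal bins. Sparse bins were thus over the background at both kinds of end, and dense bins were over it at far ends alone. Counts were not scaled by bin length, so the partly filled last bin of a far end could count as sparse. On chromosome 1 the only sparse far bin was its last, with 10 distinct tags. How many of the 74 were such bins was not counted.

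The 5 bins with the most distinct tags all lay at the far end of chromosome 10. The bin from 109400001 to 109500000 held 1497 (Poisson 95% interval 1422 to 1575), 8.25 times the autosomal median bin, and 20.7% of its tags were repeated. The other four held 1274, 1188, 1106 and 1046, between 109300001 and 110100000. At the opposite extreme 5 bins held no tag, which allows up to 3.7 tags each. At far ends these were chr7:141900001-142000000, chr7:142600001-142700000 and chr12:44700001-44800000. At start ends they were chr9:1300001-1400000 and chr14:1200001-1300000. Bins without tags were not more frequent at the ends, with 0.610% of the 820 against 1.45% in the interior.

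**Figure D3:**
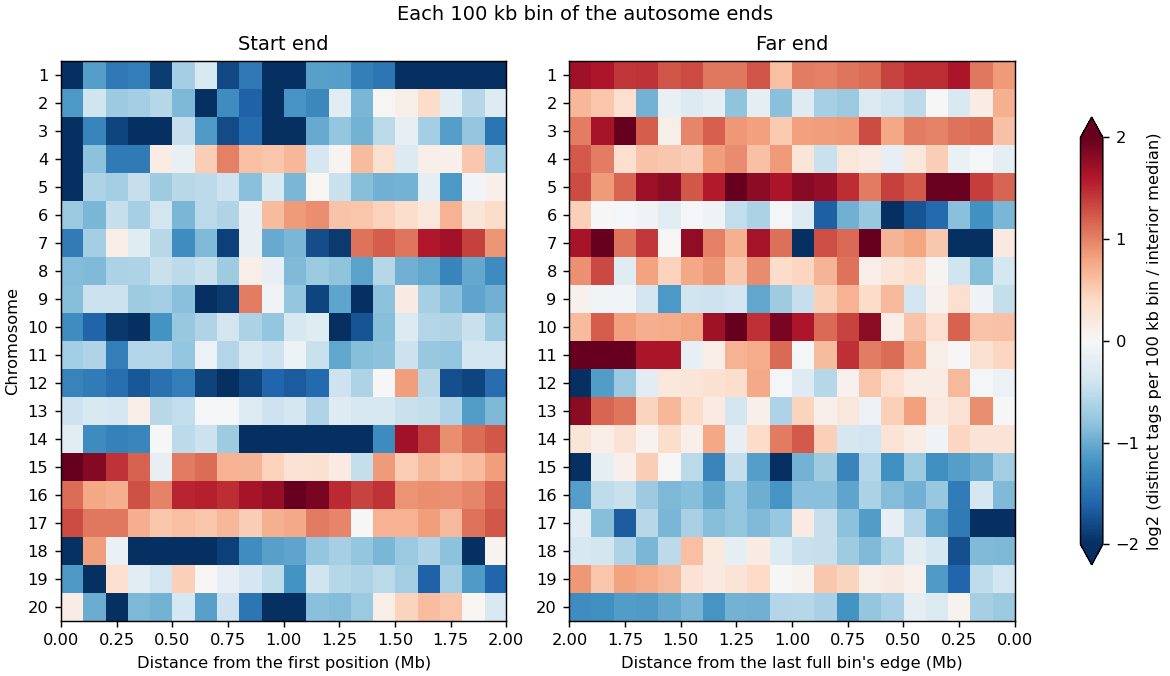
Every full 100 kb bin of the ends is coloured by the log2 ratio of its distinct tags to the interior median of its chromosome, with start ends on the left and far ends on the right, both by distance in Mb from the edge, and colours end at 4 times below or above. Blue rows dominate the left panel except chromosomes 4, 6, 15, 16 and 17, and the right panel is mostly red for chromosomes 1, 3, 5, 7, 10 and 11 and blue for 15, 16, 17 and 20.

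To see whether the sparse ends were sparse throughout or broken by empty stretches, windows of 1 kb were examined. At start ends 39.9% of windows held no tag (Clopper-Pearson 95% interval 39.4% to 40.3%), against 29.0% at far ends (28.5% to 29.4%) and 30.2% in the interior. Windows that did hold tags were also less filled, with a mean of 2.71 distinct tags at start ends, 3.83 at far ends and 3.24 in the interior. The start end exceeded its own interior in empty windows in 16 of 20 chromosomes (80%), as did 46.7% of interior blocks. At the start end of chromosome 1 the share was 64.5%, where tags spread evenly at that density would leave 51.1%. All 40 ends had more empty windows than an even spread would leave, so such an excess was not particular to chromosome 1. No such count was made for interior blocks. Since 30.2% of interior windows held no tag as well, the excess is not read as a trait of the ends. At the start end of chromosome 1, occupied windows held a mean of 1.89 distinct tags against 3.56 in its interior.

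Empty stretches did occur. The longest run of empty windows was 163 kb, at the start end of chromosome 20, followed by 156 kb at the far ends of chromosomes 6 and 7, 154 kb at the far end of chromosome 12 and 145 kb at the start end of chromosome 9. A run of at least 50 kb was found in 11 of 20 start ends and 12 of 20 far ends, near the 52.9% of interior blocks that held such a run. Counting tags per occupied window of 10 kb, which leaves such stretches out, the median start ratio was 0.637, with 15 low and 4 high, and the median far ratio was 1.11, with 8 high and 8 low.

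Pooled over all tags, repeated tags were fewer at start ends and, over the outer 2 Mb, more frequent at far ends than in the interior. They made up 9.14% of the tags at start ends (Clopper-Pearson 95% interval 8.93% to 9.36%), 11.7% at far ends (11.6% to 11.9%) and 10.8% in the interior (10.75% to 10.80%). By chromosome, the share was below the interior at 16 of 20 start ends (80%) and 13 of 20 far ends (65%), while 68.5% of interior blocks of 2 Mb were likewise below the pooled share of their chromosome. The median share was 8.59% over start ends, 8.25% over far ends and 8.74% over interior blocks (quartiles 6.63% and 11.2%), so that both medians lay well within the spread of the blocks. The far ends of chromosomes 10, 5 and 3 had the highest shares, 16.7%, 16.4% and 15.4%, and the start end of chromosome 13 the lowest, 5.06%. Without chromosome 10 the share was 10.9% at far ends and 10.6% in the interior. In the outer 1 Mb alone the far share, 10.76%, was no longer above that of the interior, 10.78%. No position of the ends held more than 11 tags, a number reached at the start end of chromosome 1, against a maximum of 20 in the interior.

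Dense bins hold more repeated tags, so the shares were also compared among bins of like density. In bins with 0.5 to 0.75 times the autosomal median, the repeated share was 6.47% at start ends, 6.44% at far ends and 6.12% in the interior. In bins with at least 2 times the median it was 13.6%, 14.5% and 14.5%. In bins with 1 to 1.5 times the median it was 8.76%, 8.05% (7.64% to 8.47%) and 8.74%, and with 1.5 to 2 times it was 10.3%, 10.0% (9.57% to 10.5%) and 10.7%, so far ends were lower than the interior there. At 0.25 to 0.5 times, start ends had 7.64% (6.91% to 8.43%), far ends 5.64% and the interior 5.99% (5.88% to 6.10%). Under 0.25 times, start ends had 5.34% (3.99% to 6.97%), far ends 5.52% (3.57% to 8.10%) and the interior 7.22% (6.82% to 7.63%). Interior bins of that class were emptier, so the densities were not alike there. Their median was 0.0496 times the autosomal median, against 0.154 at start ends and 0.116 at far ends.

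Some ends departed from bins of like density, and these were named after their values had been seen. The far end of chromosome 1 was among the densest, yet only 8.76% of its tags were repeated (8.25% to 9.30%), against 14.3% in interior bins of like density. At the far end of chromosome 19 the share was 8.13% against 11.7%. The start ends of chromosomes 18 and 1 went the other way, with 10.5% (9.08% to 11.98%) against 6.77% and 9.87% (8.40% to 11.5%) against 6.35%. The start end of chromosome 7 had 13.9% against 11.98%. Among far ends, chromosome 10 had 16.7% against 14.4% and chromosome 5 had 16.4% against 14.2%. The densest class has no upper limit, and its interior bins had a median of 2.53 times the autosomal median. The median bins of the far ends of chromosomes 10 and 5 lay at 3.33 and 2.84 times. They were thus denser than the bins set beside them, so an excess at like density cannot be told there. In all, the interval lay above the share at like density in 5 start ends and 5 far ends, and below it in 5 and 6. Of interior blocks 18.2% lay above and 30.8% below in the same way, so departures of this kind were not particular to the ends. Over the 20 far ends, density and repeated share had a Spearman rho of 0.891, and over the 20 start ends 0.0662, with all points from the same library.

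**Figure D4:**
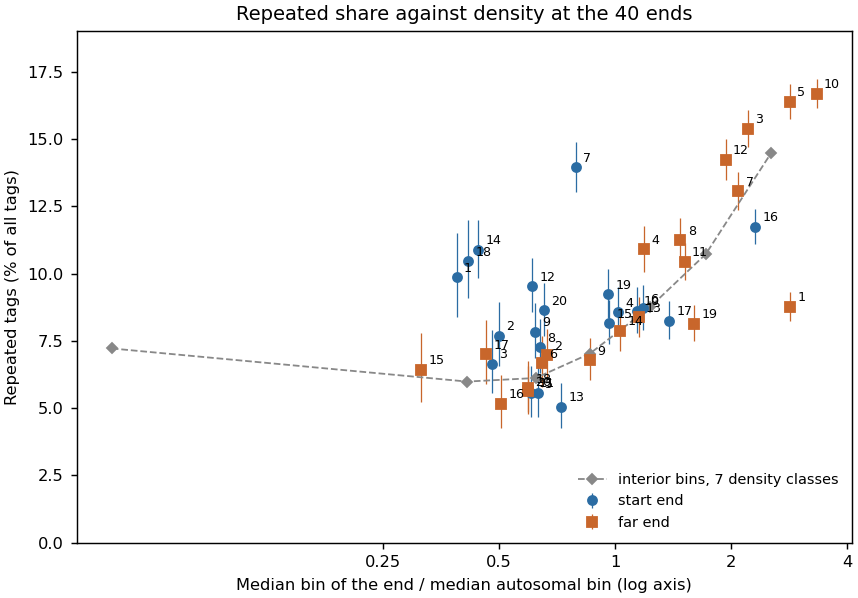
Each of the 40 ends, numbered by chromosome, is placed by its median bin relative to the autosomal median (log axis) and its repeated tags as a percentage of all tags, with exact 95% intervals, and grey diamonds show interior bins in 7 classes of density at the median density of each class. Chromosome 1 stands apart at its far end, at 8.76% under the densest grey class. Ends over the dashed grey line include the start ends of chromosomes 1, 7 and 18. The far ends of chromosomes 5 and 10 lie above the densest grey class and to the right of it. Ends are placed by their median bin, so an end of uneven bins such as the start end of chromosome 14 can lie over the line with a share near that of like density, 10.9% against 10.99%.

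Finally, pile-ups were counted as tag-rich windows, which are windows of 1 kb with at least 32 distinct tags, or 10 times the mean of occupied windows. The ends held 82 of the 1110 on the autosomes, or 0.101% of their windows against 0.0434% of all autosomal windows. Far ends held 73, or 178 per 100 Mb (Poisson 95% interval 139 to 223), start ends 9, or 22.5 per 100 Mb (10.3 to 42.7), and the interior 41.5 per 100 Mb (39.0 to 44.1). The far end of chromosome 10 alone held 40. Without chromosome 10 the far ends held 33, or 84.4 per 100 Mb (58.1 to 118.5), and the interior 32.6. At start ends 4 of the 9 lay on chromosome 7, and without that chromosome 5 were left, or 13.2 per 100 Mb (4.27 to 30.7). The interior held 40.9 per 100 Mb without that chromosome. Whether start ends held fewer than the interior depended on the setting. At 10 times the mean the interval of the start ends covered the interior, as it did with windows shifted by 500 bp, which gave 16 at start ends (22.9 to 65.0 per 100 Mb) against 42.8 per 100 Mb in the interior. At 5 times the mean, start ends held 347.5 per 100 Mb (292 to 410) and the interior 716 (705 to 727).

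Tag-rich windows were found at 11 of 20 far ends (55%) and 6 of 20 start ends (30%), against 30.9% of interior blocks. Chromosomes 11 and 1 followed chromosome 10, with 8 and 7 at their far ends. Most lay away from the very edge, since 3 lay within 100 kb and 10 within 500 kb of it. Among those 3 were the outermost windows at the start end of chromosome 15 and the far end of chromosome 4. Their strands were uneven, with 35 plus and 9 minus tags in the former and 7 plus and 28 minus in the latter. Counts of the tag-rich windows at the ends ran from 32 to 72 with a median of 36. Of the tags in them 19.9% were repeated (Clopper-Pearson 95% interval 18.6% to 21.1%), against 22.6% in tag-rich windows of the interior (22.3% to 23.0%).

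The fullest window, chr10:109778001-109779000, held 72 distinct tags, with a Poisson 95% interval of 56 to 91, and its strands were near balance, with 33 plus and 39 minus. It lay 940 kb from the edge. Next came chr11:87169001-87170000 with 65 and chr11:85790001-85791000 with 59. The window chr8:127603001-127604000 held 58. At chr7:809001-810000, the only start end among these 5, 56 were found, and a further window with 56, chr10:109802001-109803000, tied with it. In these 5 windows both strands were present in similar numbers, no position held more than 3 tags, and between 14.5% and 26.1% of tags were repeated. Genes and repeats of rn4 at these places were not analysed here.

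**Figure D5:**
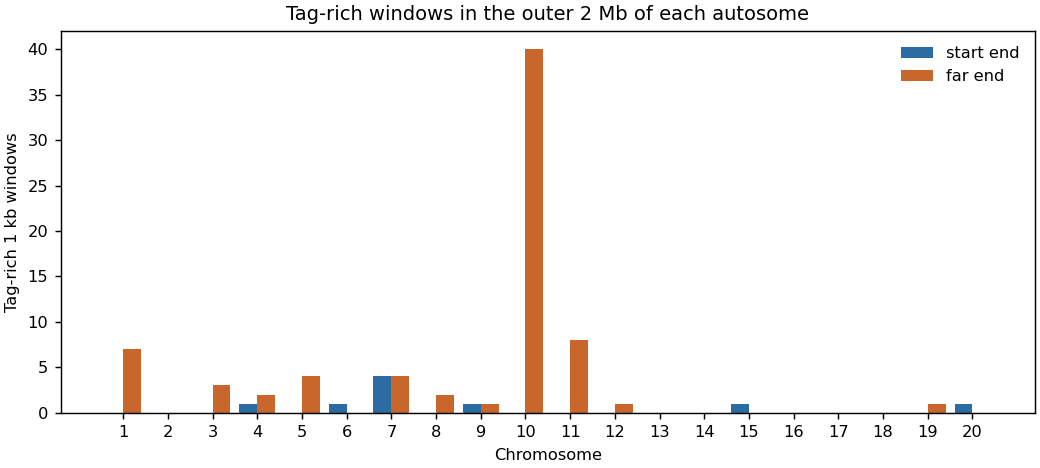
Bars give the number of tag-rich 1 kb windows in the outer 2 Mb of each autosome, with start ends in blue and far ends in orange. The far end of chromosome 10 has 40, and the next highest, the far ends of chromosomes 11 and 1, have 8 and 7.

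The strands were balanced at the ends, with 50.0% of distinct tags on the plus strand (Clopper-Pearson 95% interval 49.8% to 50.2%). Plus-strand and minus-strand 5′ ends, compared at shifts of 100 to 500 bp, were most correlated at 163 bp at the ends, where r was 0.00566 over positions, and at 168 bp in the interior, where r was 0.00462. Start ends alone gave 179 bp and far ends 163 bp, from only 152 and 455 pairs of tags at those shifts. With so few pairs, a difference in shift between the kinds of end cannot be told at this depth.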

How the data were processed

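Control DNA of PCCl3 cells, 1 library, was analysed. The authors aligned 50 bp reads to rn4 with the MIRO pipeline, allowing 2 mismatches, and deposited the tags as positions with strand and no score or normalization. The sources used here do not give the aligner version or the treatment of reads with several matches, which bears on repeated DNA. A track line was dropped, and tags were placed at their 5′ ends, with positions printed from 1. Counts per bin and window, medians, exact Clopper-Pearson and Poisson intervals and strand correlations were computed in Python 3.11.15 with numpy 2.4.6 and scipy 1.17.1. Functions were tested on simulated data with planted ratios. Interior blocks were 20 consecutive bins. The share at like density weighted interior shares of 7 density classes by the tags of each bin. Regions and comparisons were chosen with earlier results of these data known. Named items were the 6 highest and 6 lowest ends, chromosomes with both ends past 15%, 5 bins at each extreme and the 5 fullest windows at least 10 kb apart. The reference tables at hand were of another build, so genes, sequence and base composition were not used here. Without replicates, no test was made.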

Additional observations from a re-analysis of the deposited data

How the results depend on the processing

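No paired analysis was possible because only 1 library was used here. The count per occupied 10 kb window was chosen after seeing the data. The median start ratio of 0.641 stayed under 1 throughout. It was 0.555 with mean counts, 0.660 without bins under 25% of the median bin, 0.653 with 50 kb bins, 0.647 and 0.834 for the outer 1 Mb and 5 Mb, 0.781 against the next 10 Mb and 0.635 without tag-rich windows. The median far ratio of 1.17 reversed with mean counts per bin (0.990), where the partly filled last bin counts as a full bin, and against the next 10 Mb (0.771). With mean counts per length it was 1.00. It was 1.152 with all tags, 1.13 without sparse bins, 1.19 with 50 kb bins, 1.08 and 1.38 for the outer 1 Mb and 5 Mb, 1.18 without the last bin and 1.11 per occupied window. Apart from that bin, the cause was not tested. The 8 low far ends became 4 with the outer 5 Mb, and the 10 high ones became 3 against the next 10 Mb. At a size of 50%, 3 start ends were low, 6 far ends high and 0 low. With the outer 5 Mb, the ratio reversed at the start end of chromosome 14 (1.13) and the far end of chromosome 15 (1.19).

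The repeated share was 8.84% and 10.4% at start ends, and 10.8% (interior likewise 10.8%) and 13.3% at far ends, for the outer 1 Mb and 5 Mb, and 11.5% at far ends without tag-rich windows. Tag-rich windows numbered 139 and 611 at start and far ends (17735 in the interior) at 5 times the mean, 0 and 2 (38) at 20 times, where more or fewer tags are asked for by construction. Start ends had 19 with all tags and 16 with windows shifted by 500 bp. Of 10 kb windows, 7.55% and 5.37% were empty. Leaving out each chromosome in turn, the start ratio ran from 0.616 to 0.667 and the far ratio from 1.14 to 1.20, with 14 to 15 low and 3 to 4 high start ends, and 9 to 10 high and 7 to 8 low far ends. The repeated share ran from 8.74% to 9.31% and from 10.9% to 12.04%, and tag-rich windows from 5 to 9 and from 33 to 73.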

Other observations

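Chromosome X, which is no autosome, was set aside above. Its start end held a median of 45 distinct tags per 100 kb bin (22 to 62) and its far end 167 (60 to 273), against 60 in its interior. The ratios were 0.75 and 2.78. Repeated tags were 6.55% at the start end (Clopper-Pearson 95% interval 5.07% to 8.30%), 11.5% at the far end (10.6% to 12.6%) and 7.20% in the interior (7.05% to 7.35%). Of its tag-rich windows 0 lay at either end and 9 in the interior.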
